A study of Drosophila melanogaster with 8 samples.

Results

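The 5 POU factor genes nub, pdm2, pdm3, acj6 and vvl and the homeobox gene NK7.1 were followed in the heads of Drosophila melanogaster females in reproductive diapause and of females that matured eggs under the same conditions. All flies were of the wild-type strain Canton S. They were collected within 8 h of eclosion and aged 12 days at 12.5 °C with 14 h of light and 10 h of darkness, an intermediate day length at which only a part of the females arrests egg development. Both groups therefore shared strain, sex, age, temperature and light, and females were sorted by whether their most advanced oocyte was still previtellogenic. There were 4 diapause arrays and 4 non-diapause arrays of whole-head RNA. The labels do not say how many heads were pooled for an array or whether arrays came from separate cultures, so the spread between arrays may be technical. The genes are 6 of 11982 that had a probe set annotated with a single symbol, and they were measured by 10 of 18769 probe sets. They were chosen with results of these arrays known, in which nub and NK7.1 stood higher in diapause. Differences between diapause and non-diapause heads are therefore given for these genes as a description, without a test.

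POU factors bind DNA through a POU-specific domain joined to a homeodomain, and in flies they act mainly in neural and epithelial development. nub and pdm2 are neighbouring genes of similar function that act in the succession of factors by which embryonic neuroblasts change the neurons they make. nub is also needed for wing growth, and its long and short protein forms have opposite effects on antimicrobial peptide genes in the gut. vvl acts in tracheal, glial and neuronal development. acj6 and pdm3 act in the nervous system, where they contribute to the choice of odorant receptors and to axon targeting. NK7.1 belongs to the NK class of homeobox genes.

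Values were deposited on the log2 scale, with a floor of 2.16 at which 34.2% of the tested probe sets lay on every array and a highest value of 15.7. Array medians were 2.74 to 2.92. Pearson's r between arrays was 0.976 to 0.998 over all probe sets, and the lowest values involved non-diapause 3. That array nearly lacked digestive enzyme transcripts, with a mean of 2.69 over 14 midgut protease genes, against 9.42 to 10.93 on diapause arrays and 9.44 to 10.65 on the other non-diapause arrays. Diapause 3 stood apart for heat shock genes, with a mean of 12.61 over 4 genes against 9.06 to 9.41 on all other arrays. Head tissue was evident in eye markers, with means of 14.49 to 14.76 on diapause arrays and 14.46 to 14.78 on non-diapause arrays over 3 genes. Of 6 ovary markers, 5 did not exceed 2.32 on any array, and the other, grk, was 7.13 ± 0.09 on diapause arrays and 7.12 ± 0.28 on non-diapause arrays (SD). In limma, 0% of probe sets passed at an adjusted p of 0.05. An unadjusted p under 0.05 was reached by 563 probe sets, and the smallest adjusted p was 0.0743.

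nub showed the widest separation of the 6 genes, in 1 of its 3 probe sets. Probe set 1639500_at read 5.59, 4.74, 5.99 and 6.22 on diapause arrays 1 to 4, against 3.60, 4.15, 3.12 and 3.86 on non-diapause arrays 1 to 4. Every diapause array was above every non-diapause array, and the gap between the lowest diapause and the highest non-diapause array was 0.60. Means were 5.64 ± 0.65 in diapause, against 3.68 ± 0.44 in non-diapause heads (SD, n = 4 each), a log2 difference of 1.96 ± 0.38 (SE) with a 95% interval of 1.03 to 2.88. On the linear scale this is a 3.88-fold higher signal in diapause, with an interval of 2.05 to 7.35. When arrays were left out one at a time the difference was 1.76 to 2.25, and without diapause 3 and non-diapause 3 together it was 1.65. As whole heads were measured, more cells with nub transcript and more transcript per cell cannot be told apart.

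The other probe sets of nub disagreed with this one. Probe set 1626836_at read 2.17 on all 8 arrays and 1630736_at read 2.16 on all 8 arrays. Both were thus at or next to the floor in either group, and their differences were 0. The sources used here do not place the probe sets within the nub gene, so the transcript forms they detect are unknown. RefSeq lists 3 transcripts for nub. The lowest non-diapause value of 1639500_at, 3.12 on non-diapause 3, was within 1 log2 unit of the floor.

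**Figure D1:**
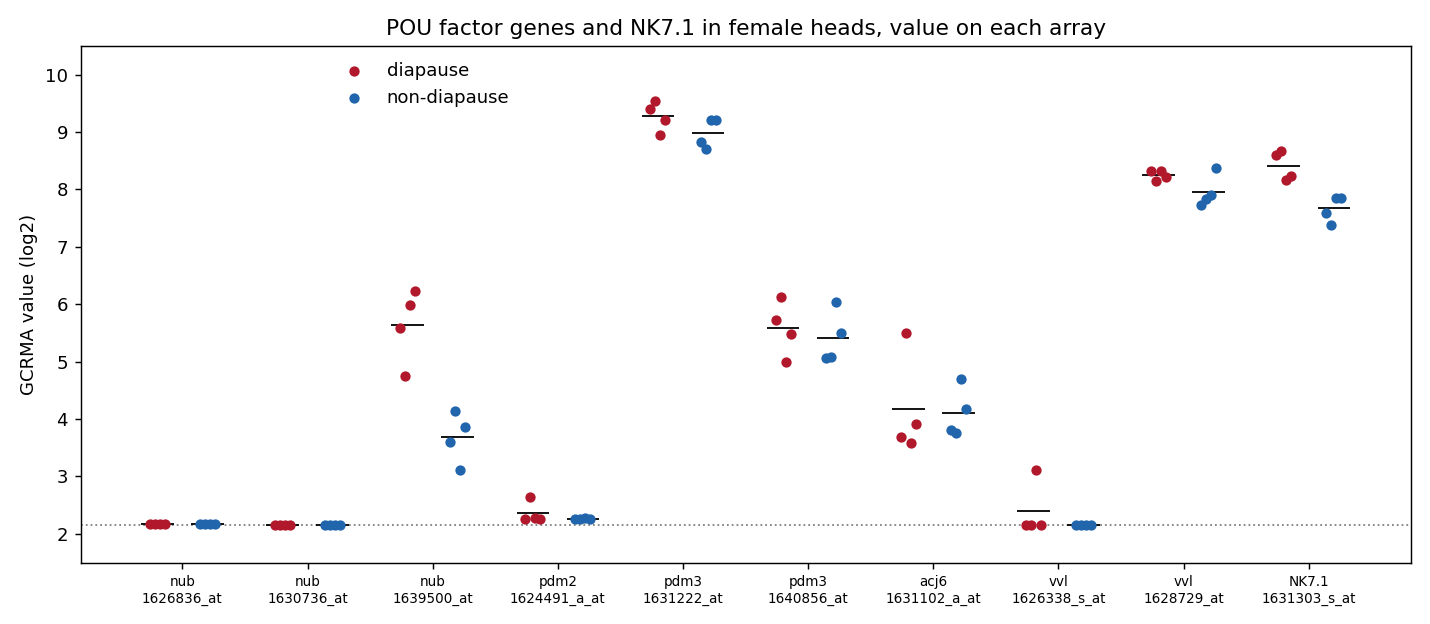
GCRMA values (log2 scale, vertical axis) of the 10 probe sets of nub, pdm2, pdm3, acj6, vvl and NK7.1, with a point for each array, a black line at each group mean (n = 4) and a dotted line at the lowest value in the plot. The diapause points of nub 1639500_at (4.74 to 6.22) and of NK7.1 (8.16 to 8.67) lie above all non-diapause points of the same probe set (3.12 to 4.15 and 7.38 to 7.86), while the points of the other probe sets overlap between groups or sit near the floor.

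NK7.1 was the other gene whose groups did not overlap. Its single probe set, 1631303_s_at, read 8.60, 8.67, 8.16 and 8.23 on diapause arrays 1 to 4, against 7.60, 7.38, 7.86 and 7.86 on non-diapause arrays 1 to 4. The lowest diapause array, diapause 3, was 0.30 above the highest non-diapause array. Means were 8.41 ± 0.26 in diapause, against 7.67 ± 0.23 in non-diapause heads (SD, n = 4 each). The log2 difference was 0.74 ± 0.17 (SE), with a 95% interval of 0.34 to 1.14, or 1.67-fold. It was 0.64 to 0.82 with single arrays left out and 0.88 without diapause 3 and non-diapause 3. The suffix of this probe set marks probes that can match transcripts of more than 1 gene, so a share of its signal may belong to another transcript.

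Of the 10 probe sets of the 6 genes, 2 had every diapause array above every non-diapause array and 0 had every diapause array below. Over all tested probe sets these shares were 0.405% and 1.2%. Since nub and NK7.1 were picked from this very comparison, nothing is read from that count. Mean differences exceeded 0 by more than 0.01 in 8 of the 10 probe sets and were below 0 by that much in 0. The 8 include nub 1639500_at and NK7.1, and those of pdm2 and vvl 1626338_s_at rested on 1 array each. No share over all probe sets was computed for this cut-off, so nothing is read from this count either. The plot of differences by probe set gives the size of each, which was largest for nub 1639500_at and next for NK7.1, the genes picked for it.

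**Figure D2:**
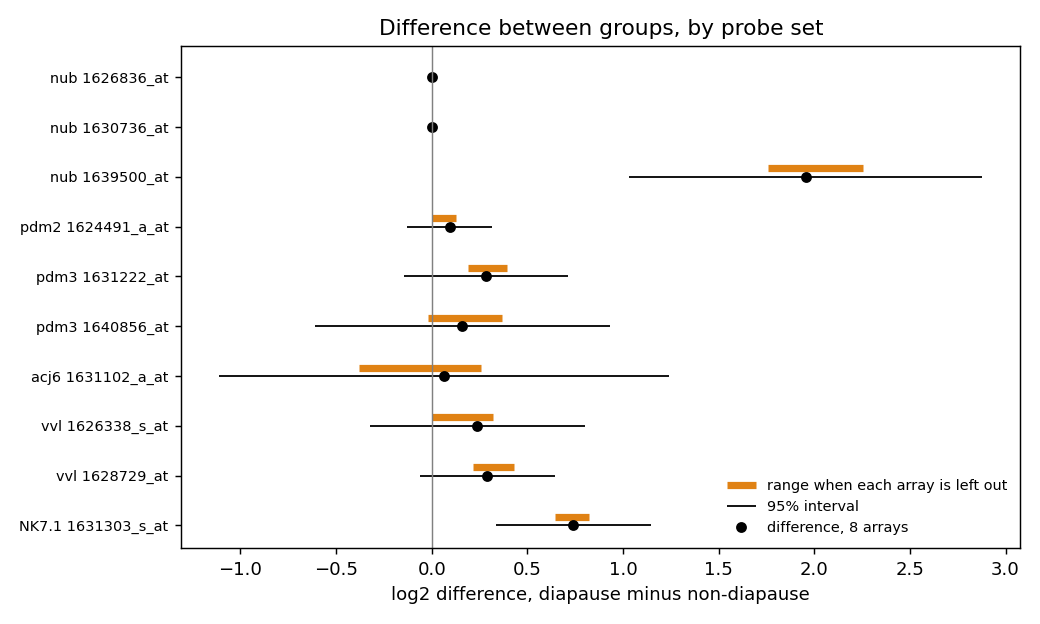
Log2 difference between diapause and non-diapause heads (horizontal axis, diapause minus non-diapause) of each probe set, as a black point with its 95% interval (thin line) and the range obtained when each array was left out (orange bar). The points of nub 1639500_at (1.96) and NK7.1 (0.74), genes picked from this comparison, lie farthest to the right, and the leave-one-out range of acj6 runs from -0.38 to 0.26.

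pdm2, the neighbour and paralogue of nub, was close to the floor. Its probe set 1624491_a_at read 2.26, 2.64, 2.27 and 2.26 in diapause heads, against 2.26, 2.26, 2.27 and 2.26 in non-diapause heads. Diapause 2 alone departed from the others, and without it the log2 difference of 0.09 was 0.00. A difference of pdm2 was not detectable at this signal.

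The chromosomal neighbours of nub and pdm2 gave no difference of the size seen for nub, which was itself picked for its difference. Ref2, whose annotated span overlaps that of nub, was at the floor of 2.16 on every array, as were t-cup and lncRNA:CR42746 on one side. Nepl7, whose span overlaps that of pdm2, did not exceed 2.17. A difference of Ref2, t-cup, lncRNA:CR42746 or Nepl7 could not be measured at this signal. bun, a TSC-22 family regulator, was 10.66 ± 0.10 in diapause, against 10.48 ± 0.06 in non-diapause heads (SD). Its log2 difference was 0.17 ± 0.06 (SE, limma adjusted p = 1, unadjusted under 0.05). CCT4, a subunit of the chaperonin that folds actin and tubulin, differed by 0.12 ± 0.18 (SE, limma adjusted p = 1), and CG6153 by -0.05 ± 0.08 (SE, limma adjusted p = 1).

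The neighbours of NK7.1, likewise picked for its difference, gave no difference of its size. ATPsynE, a subunit of the mitochondrial ATP synthase, was 13.57 ± 0.05 in diapause, against 13.59 ± 0.07 in non-diapause heads. The histone methyltransferase gene Set8 was 6.65 ± 0.26 in diapause, against 6.52 ± 0.54 in non-diapause heads, and Afti differed by -0.02. Dnaaf5, whose span overlaps that of NK7.1, read 2.53 to 2.62 over the 8 arrays. soti and the brightest of 4 probe sets of cv-c stayed at or below 2.19. At such signals a difference of Dnaaf5, soti or cv-c could not be measured. None of the 6 neighbours passed in limma (adjusted p = 1 for each).

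vvl was measured by a bright and a silent probe set, which disagreed. On 1628729_at it read 8.32, 8.15, 8.32 and 8.22 on diapause arrays 1 to 4, against 7.73, 7.83, 7.90 and 8.38 on non-diapause arrays 1 to 4. The diapause arrays lay close together, and non-diapause 4 lay above all of them. The log2 difference was 0.29 ± 0.15 (SE), with a 95% interval of -0.06 to 0.65. Without non-diapause 4 it was 0.43. That array was the only one that overlapped the diapause arrays, so leaving it out had to separate the groups. In that setting 195 of all tested probe sets had every diapause array above, against 76 with all arrays. Nothing is read from this separation. On 1626338_s_at all arrays were at 2.16 except diapause 3, which read 3.11, so the log2 difference of 0.24 came from that array and was 0.00 without it. Diapause 3 was also the array with high heat shock transcripts, and the part of that in this reading was not tested.

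pdm3 was detected by both of its probe sets, and the groups overlapped in both. On 1631222_at it read 9.40, 9.53, 8.96 and 9.21 on diapause arrays 1 to 4, against 8.82, 8.71, 9.21 and 9.21 on non-diapause arrays 1 to 4. The log2 difference was 0.28 ± 0.18 (SE, 95% interval -0.14 to 0.71). On 1640856_at it read 5.72, 6.12, 4.99 and 5.48 on diapause arrays 1 to 4, against 5.06, 5.08, 6.03 and 5.50 on non-diapause arrays 1 to 4. The difference there was 0.16 ± 0.32 (SE), with a 95% interval of -0.61 to 0.93, and it turned to -0.02 without diapause 2. In both probe sets diapause 2 was the highest diapause array and diapause 3 the lowest.

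acj6 varied more between arrays of a group than between groups. Its probe set 1631102_a_at read 3.68, 5.50, 3.58 and 3.92 on diapause arrays 1 to 4, against 3.80, 3.76, 4.69 and 4.18 on non-diapause arrays 1 to 4. The highest reading was that of diapause 2 and the next that of non-diapause 3, 1 in each group. Means were 4.17 ± 0.90 in diapause, against 4.11 ± 0.43 in non-diapause heads (SD, n = 4 each), with a log2 difference of 0.06 and a 95% interval of -1.11 to 1.24. The direction was not stable, with -0.38 without diapause 2 and -0.09 after a second quantile normalization. The interval is wide enough to hold more than a doubling in either direction, so the data do not show that acj6 was alike in the groups.

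The arrays within a group were then compared, which does not use the difference between groups. For the 6 probe sets with a mean above 3 and some variation, each array was expressed as its departure from the mean of its group, and the 15 pairs of probe sets were compared over 8 arrays by an exact permutation test within groups (2-sided, 576 arrangements). NK7.1 and pdm3 (1631222_at) departed together, with Pearson's r = 0.95 (exact permutation p = 0.00174, the smallest that these arrangements can give, and 0.0260 after Benjamini-Hochberg adjustment over the 15 pairs) and Spearman's coefficient = 0.88 (exact permutation p = 0.00347, adjusted 0.0521). Without the 2 arrays farthest from the median of pdm3, diapause 3 and non-diapause 2, r was 0.90. The departures of NK7.1 were 0.19, 0.25, -0.25 and -0.19 on diapause arrays 1 to 4 and -0.08, -0.29, 0.18 and 0.19 on non-diapause arrays 1 to 4. Those of pdm3 (1631222_at) were 0.12, 0.26, -0.32 and -0.06 on diapause arrays and -0.17, -0.28, 0.22 and 0.22 on non-diapause arrays, with the same sign on each of the 8 arrays. With the dimmer probe set of pdm3, 1640856_at, NK7.1 had r = 0.86 (exact permutation p = 0.0208, adjusted 0.0781). Spearman's coefficient there was 0.74 (exact permutation p = 0.0660, adjusted 0.204), and neither passed after adjustment.

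The 2 probe sets of pdm3 followed each other (r = 0.93, exact permutation p = 0.0104, adjusted 0.0608; Spearman's coefficient = 0.86, exact permutation p = 0.0278, adjusted 0.174). r was 0.88 without diapause 3 and non-diapause 2. acj6 followed the dimmer probe set of pdm3 with r = 0.82 (exact permutation p = 0.0122, adjusted 0.0608; Spearman's coefficient = 0.71, exact permutation p = 0.0729, adjusted 0.204), and r was 0.80 without diapause 3 and non-diapause 3. Neither relation passed after adjustment. Of the 15 pairs, the pair of NK7.1 and pdm3 1631222_at was the only one with an adjusted p under 0.05 for r, and no pair reached it for Spearman's coefficient.

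nub had negative r with both probe sets of pdm3, with acj6 and with NK7.1, none of which passed after adjustment. Its departures were -0.05, -0.89, 0.35 and 0.59 on diapause arrays 1 to 4 and -0.08, 0.47, -0.56 and 0.18 on non-diapause arrays 1 to 4. Against acj6, r was -0.84 (exact permutation p = 0.0451, adjusted 0.104; Spearman's coefficient = -0.55, exact permutation p = 0.240, adjusted 0.359), but r was 0.01 without diapause 2 and non-diapause 3, so the relation rests on those 2 arrays. Against NK7.1, r was -0.78 (exact permutation p = 0.0486, adjusted 0.104; Spearman's coefficient = -0.74, exact permutation p = 0.0816, adjusted 0.204), and -0.69 without the same arrays. nub was thus low for its group on diapause 2 and non-diapause 3, where NK7.1 was high for its group. vvl (1628729_at) had r between -0.11 and 0.35 with the other 5 probe sets.

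**Figure D3:**
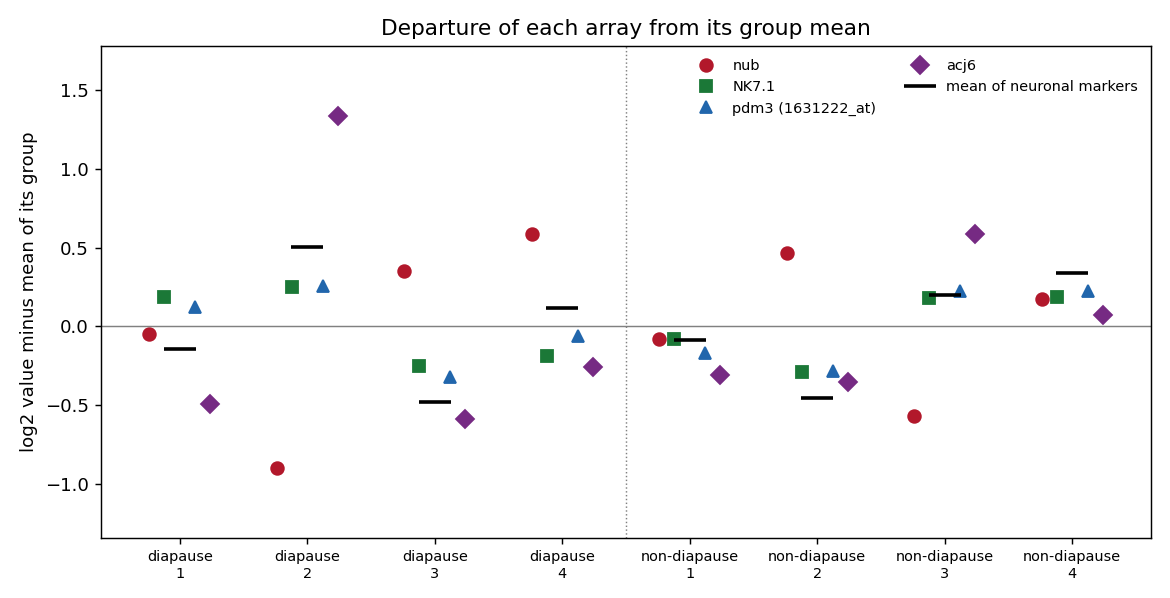
Departure of each array from its group mean (vertical axis, log2 units) for nub 1639500_at, NK7.1, pdm3 1631222_at, acj6 and the mean of 6 neuronal marker genes, with the 4 diapause arrays left of the dotted line and the 4 non-diapause arrays right of it. NK7.1 and pdm3 have the same sign on each array, and nub is lowest on diapause 2 (-0.89), where acj6 is highest (1.33).

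Neuronal markers varied between the same arrays. The mean over 6 such genes was 8.77, 9.41, 8.43 and 9.03 on diapause arrays 1 to 4 and 8.64, 8.28, 8.93 and 9.07 on non-diapause arrays 1 to 4. It was thus highest on diapause 2 and low on diapause 3 and non-diapause 2, where pdm3 and NK7.1 were likewise high or low for their groups. On diapause 1 it was below its group mean while pdm3 and NK7.1 were above theirs, and on diapause 4 the reverse held. Of the 6 neuronal markers, 5 stood higher and 1 lower in diapause (median 0.24), and 0 passed at limma p under 0.01. The part of neuronal content in the values of pdm3, acj6 and NK7.1 was not tested. Muscle markers stood higher in diapause in 6 of 6 genes (list means 11.68 to 11.90 in diapause, 11.36 to 11.72 in non-diapause heads, median difference 0.24). Fat body markers were lower in 7 of 8, with list means of 12.44 to 12.62 in diapause, below the 12.74 to 12.94 of non-diapause heads (median difference -0.30). At limma p under 0.01, 4 of the 8 were lower, where 0.607% of all probe sets were. These were Yp2, Yp3, Lsp2 and GLaz. The study listed Yp2 and Yp3 among its diapause genes from these same arrays, so that listing is not separate evidence. As the list was chosen with earlier results of these data known, nothing is read from that count. Less fat body tissue and lower expression of these genes cannot be told apart here. Glial markers had list means of 11.59 to 11.77 in diapause, against 11.46 to 11.73 in non-diapause heads (5 genes, median difference 0.08). The part of muscle, fat body and glial content in the values of nub and NK7.1 was not tested.

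Gut transcripts bear on nub because its protein marks absorptive cells of the midgut. Midgut protease genes had a median log2 difference of 2.30, with 14 of 14 higher in diapause. Of these, 1 (Jon65Ai) was higher at limma p under 0.01, where 0.16% of all probe sets were. Jon65Ai read 2.39, 3.53, 2.16 and 2.19 on non-diapause arrays 1 to 4, mostly near the floor. The median of the 14 genes was -0.0046 without non-diapause 3 and -0.26 without diapause 3 as well. Their list mean was 9.42, 10.14, 10.93 and 10.54 on diapause arrays 1 to 4, against 10.65, 9.89, 2.69 and 9.44 on non-diapause arrays 1 to 4. Within diapause, the mean was highest on diapause 3 and 4, where nub was highest too, and lowest on diapause 1, while nub was lowest on diapause 2. Within non-diapause, both were lowest on non-diapause 3, and the mean was highest on non-diapause 1 and nub on non-diapause 2. Without non-diapause 3 the log2 difference of nub was 1.77. The part of gut content in the values of nub was not tested.

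Genes with known links to the 6 genes were described from 7 lists, of which 49 of 65 genes had a probe set of their own. Each gene was represented by its brightest probe set. In limma, 0 of 49 passed at adjusted p under 0.05, and 0 were higher and 0 lower at p under 0.01, where the shares over all probe sets were 0.16% higher and 0.607% lower. At p under 0.05, 3 were higher and 0 lower, against 0.906% and 2.09% over all probe sets. The median difference over all probe sets was 0.00.

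The antimicrobial peptide genes, targets of nub and vvl in epithelia, included some that varied widely within both groups. Of 6 measured, 2 stood higher, 2 lower and 2 next to the floor (median -0.0039). Drs, the gene of drosomycin, was 11.47, 13.52, 12.37 and 12.29 on diapause arrays 1 to 4, against 11.88, 12.95, 12.77 and 12.60 on non-diapause arrays 1 to 4. DptB, a diptericin gene, was 9.22, 9.08, 6.32 and 5.55 on diapause arrays, against 6.95, 5.45, 6.42 and 7.66 on non-diapause arrays. DptB was thus higher on diapause 1 and 2 than on diapause 3 and 4. In both genes the groups overlapped, and the log2 differences were -0.14 ± 0.47 for Drs and 0.93 ± 1.02 for DptB (SE, limma adjusted p = 1 for both).

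The odorant receptor genes of the maxillary palp, some of which need acj6 or pdm3, were not measurable in whole heads. Or33c, Or42a, Or46a, Or59c, Or71a, Or85d and Or85e, 7 of 7, were within 0.01 of the floor on every array. The cholinergic genes were bright. ChAT and VAChT, which share a locus and encode the enzyme that makes acetylcholine and its vesicular transporter, differed by 0.04 ± 0.23 and 0.15 ± 0.29 (SE). The choline transporter gene ChT was 11.05 ± 0.41 in diapause, against 10.61 ± 0.35 in non-diapause heads (SD, n = 4 each). Ace, which encodes acetylcholinesterase, was 9.58 ± 0.15 in diapause, against 9.29 ± 0.18 in non-diapause heads, a log2 difference of 0.30 (limma adjusted p = 1, unadjusted under 0.05). The 4 cholinergic genes stood higher in diapause (median 0.22), and 0 of them passed at p under 0.01.

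**Figure D4:**
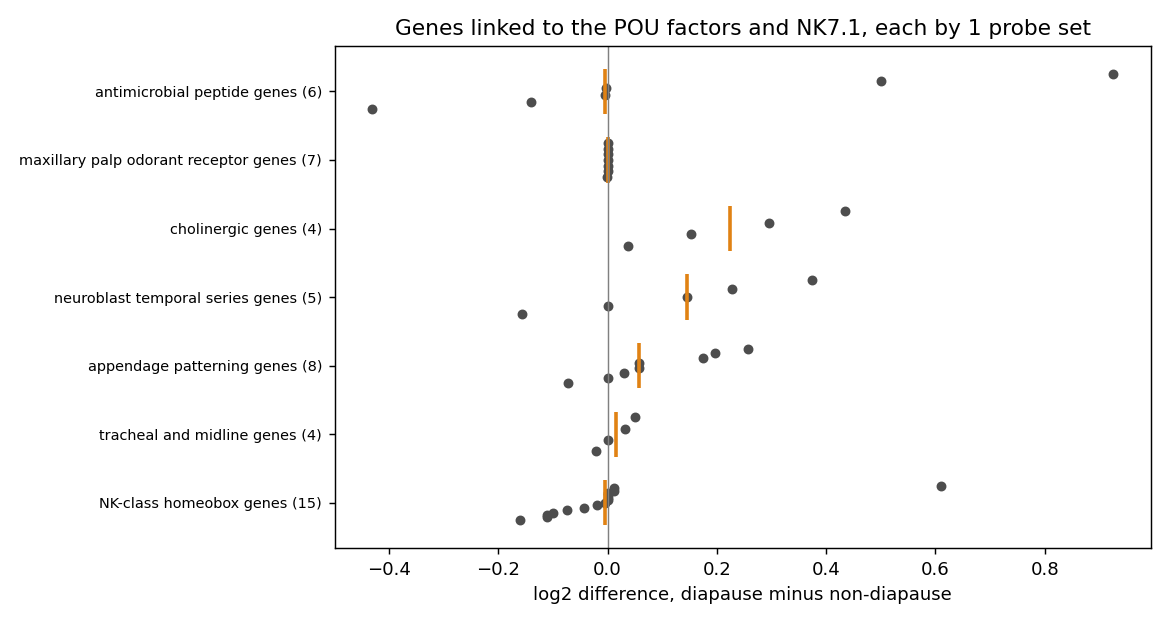
Log2 difference between diapause and non-diapause heads (horizontal axis, diapause minus non-diapause) of 49 genes in 7 lists, each gene a point at its brightest probe set and each list median an orange line, with the number of genes in parentheses. The widest spread is among antimicrobial peptide genes, the palp receptors sit at 0, and the cholinergic genes lie between 0.04 and 0.43.

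Among genes that act with nub and pdm2 in the succession of neuroblast factors, cas was at the floor and Kr and hb were dim. hb was 3.58 ± 0.37 in diapause, against 3.44 ± 0.04 in non-diapause heads, and Kr 2.43 ± 0.27 in diapause, against 2.20 in non-diapause heads. For both genes the highest array was diapause 3, the array on which the silent probe set of vvl also gave signal. grh, an epithelial factor that closes the series, was 9.28 ± 0.10 in diapause, against 8.91 ± 0.29 in non-diapause heads (difference 0.37, limma adjusted p = 1, unadjusted under 0.05), while its other probe set differed by -0.01. svp differed by -0.16 at its brightest probe set, while its other 2 probe sets gave 0.00 and 0.18.

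Among appendage patterning genes, where nub acts in wing growth, 6 of 8 stood higher, 1 lower and 1 at no difference (median 0.06). The wing selector gene vg was dim, at 2.55 ± 0.06 in diapause, against 2.49 ± 0.01 in non-diapause heads. ap, which specifies the dorsal wing, was 8.38 in diapause, against 8.38 in non-diapause heads, and its other probe set differed by -0.19. Dll, which acts in antennal and leg development, differed by 0.26 ± 0.15 (SE), and its other 2 probe sets by -0.01 and 0.04. Of these 8 genes bab2, another limb patterning gene, had p under 0.05 (log2 difference 0.20, limma adjusted p = 1) and was named for that after its value was seen.

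Genes that act with vvl in trachea and midline were dim or level. btl, the tracheal FGF receptor, and sli, a midline guidance cue, were near the floor, at 2.21 in diapause, against 2.16 in non-diapause heads for btl and 2.16 in both for sli. The Sox factor gene D differed by 0.03 ± 0.20 and tgo, a bHLH-PAS partner, by -0.02 ± 0.11 (SE). The list of other NK-class homeobox genes also held related homeobox genes such as exex. Of its 17 genes 15 were measured, with 3 higher, 7 lower and a median of -0.01, and 0 passed at p under 0.01. bap was 5.91 ± 0.16 in diapause, against 6.02 ± 0.16 in non-diapause heads, lbe was 2.22 in both groups, and slou was 3.96 ± 0.08 in diapause, against 4.00 ± 0.02 in non-diapause heads. None of the 15 differed by as much as the 0.74 of NK7.1, and the closest, exex, had a log2 difference of 0.61 ± 0.66 (SE). NK7.1 was picked for its difference. On every array 3 of the 15 were at the floor and others, such as lbe, lay next to it, where no difference could be measured. Nothing is therefore read from that order or from the split of 3 higher and 7 lower.

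The genes whose departures were most like those of nub and NK7.1 were sought among probe sets with 1 symbol and a mean of at least 5. Over the 8 arrays, nub was most like CG8051 (r = 0.98, Spearman's coefficient 0.98), Trxr1, a thioredoxin reductase gene (r = 0.96, Spearman's coefficient 0.86), and mal, a molybdenum cofactor sulfurase gene (r = 0.96, Spearman's coefficient 0.90), the highest of 7338 compared. None of these genes shared its group difference, since they differed by -0.05, 0.09 and 0.09. NK7.1 was most like CG9281 (r = 0.99, Spearman's coefficient 0.98), bdwf (r = 0.96, Spearman's coefficient 0.90) and msl-1, a subunit of the dosage compensation complex (r = 0.95, Spearman's coefficient 0.90). Their log2 differences were 0.01, -0.08 and 0.09. As the highest of so many values over 8 arrays, these are a description, with no test.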

How the data were processed

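Total RNA of female heads was labelled with biotin from 6 µg and hybridised in 1 colour to Affymetrix Drosophila Genome 2.0 arrays. The authors deposited log2 values per probe set, made with GCRMA per the submitters' processing notes, which corrects background from probe sequence, normalizes by quantiles and summarises probes. The sources used here do not state its version. Values at the floor of 2.16 have no order.

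Groups and replicate numbers came from sample titles. After 183 control probe sets were left out, 18769 were fitted on all 8 arrays with limma 3.58.1 in R 4.3.3 (lmFit, eBayes, 2-sided), with Benjamini-Hochberg adjustment over all of them and a threshold of 0.05. The counts at p under 0.01, the threshold of the study, were given too. The fit was tested on simulated data. Levels were compared between probe sets only to pick the brightest of a gene, to apply minimum means and to call a signal bright, dim or silent. Genes were named by the platform annotation, used with 1 symbol only (13647 probe sets, with 402 of several symbols and 4720 of none). Neighbours were taken from the order of genes in RefSeq Release 6, with 3 on either side, and no coordinates are given since the probes carry no build.

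The members and lists were chosen with earlier results of these data known. Named were all probe sets of the 6 genes, all genes of linked lists of up to 8 genes, the first 4 of longer ones where measured, the neighbours, and for nub and NK7.1 the 3 genes of highest r. bab2, exex, Yp2, Yp3, Lsp2, GLaz and Jon65Ai were named after their values were seen, as were the lists' counts at p under 0.05. Alternatives were a replicate block, limma-trend, array medians set equal, a second quantile normalization, a mean of at least 4, each array left out, diapause 3 and non-diapause 3 left out, and the mean of a gene's probe sets. The number of arrays limits the precision.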

Additional observations from a re-analysis of the deposited data

Results flagged for a closer look

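Of 91 groups of 4 arrays examined for a lone array among the values above, 11 had 1 array far from the other 3. Chance alone gives about 1 in 20 groups only where values vary freely. Several of the groups found had tied values on the other arrays, where any small departure stands out. The count is therefore not read as an excess. On diapause 3 the lone value was 3.11 for the silent probe set of vvl (1626338_s_at), with 2.16 on the other diapause arrays. On that array it was also 12.61 for the mean of heat shock genes (9.06 to 9.34 on the others), 4.14 for hb (3.34 to 3.44), 2.36 for btl (2.16), 3.84 for slou (3.99 to 4.01) and 2.62 for Dnaaf5 (2.53). On diapause 2 it was 2.64 for pdm2 (2.26 to 2.27 on the others), and on diapause 1 it was 2.19 for cv-c (2.16). Among non-diapause arrays it was 2.69 for the mean of midgut protease genes on non-diapause 3 (9.44 to 10.65 on the others), 2.17 for Nepl7 on non-diapause 1 (2.16) and 2.58 for Dnaaf5 on non-diapause 4 (2.53). Apart from the 2 list means, hb and slou, all of these readings lie within 1 log2 unit of the floor.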

How the results depend on the processing

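Of 440 values recomputed under the alternatives, 406 stayed within the spread between arrays (for counts, within 1.5 times). Among the 136 of the 10 probe sets of the 6 genes, the 2 exceptions were the silent probe sets of nub, at -0.06 with arrays centred on their medians, a setting that gave -0.06 as the median over all probe sets. The replicate block, limma-trend and the minimum mean cannot change the log2 difference of a probe set. Part of the 406 was therefore fixed in advance. nub (1639500_at) and NK7.1 kept non-overlapping groups after the second quantile normalization and after centring. The other settings examined for overlap left out arrays or dim probe sets, which cannot make separated groups overlap. The sign of acj6 turned to -0.38 without diapause 2, -0.04 without non-diapause 1, -0.05 without non-diapause 2 and -0.09 after the second quantile normalization. Below, counts without single arrays are given as ranges, and the cause of the shifts was not tested. At adjusted p under 0.05, higher in diapause was 0 to 2 without single arrays (2 without non-diapause 2), and lower was 2 after the second quantile normalization and 1 after centring, against 0 in each direction. At p under 0.01 the split was 30 higher and 114 lower. It was 23 and 209 after the second quantile normalization and 21 and 297 after centring, while without single arrays it ranged from 20 to 47 (47 without non-diapause 2) and from 72 to 120 (74 without diapause 2, 72 without non-diapause 1), and 51 were higher without diapause 3 and non-diapause 3. Groups did not overlap, with diapause above, for 76 probe sets, against 49 after the second quantile normalization, 30 after centring, 107 to 221 without single arrays and 797 without diapause 3 and non-diapause 3. With diapause below they were 225, 470, 505, 294 to 403 and 730 in that order. Fewer arrays separate more easily. List medians left the spread in 7 of 224 alternatives. They were -0.0616 for palp odorant receptors, -0.067 for NK-class genes and -0.0616 for ovary markers after centring, -0.0866 for NK-class genes with a mean of at least 4, and, for the neuroblast series, 0.011 after the second quantile normalization, 0 without diapause 3 and non-diapause 3, and 0 to 0.225 without single arrays (0 without diapause 3). Departures of same-numbered arrays had r of -0.66 to -0.02, and 0 of 4 diapause arrays were most like their own number. As departures cancel within a group, some negative r is forced. Whether same-numbered arrays were prepared together was not tested. With the replicate number as a block, p under 0.01 was reached by 25 probe sets higher and 87 lower, and adjusted p by 0. The difference of nub stayed at 1.96, which a block cannot move in this balanced design. pdm2 and the silent probe sets of nub and vvl lie at background signal, where a difference could not be measured.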
